A study of Homo sapiens with 8 samples.

Results

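The interferon regulatory factors (IRFs) examined were 8 genes, IRF1, IRF2, IRF3, IRF4, IRF5, IRF7, IRF8 and IRF9, of 20033 protein-coding genes with an annotated promoter. They were taken by family name, and H3K4me3 peaks were collected within 3 kb of the 5′ end that MANE Select gives each gene. H3K4me3, trimethylated lysine 4 of histone H3, marks active and poised promoters. The peaks came from ChIP-seq of U2OS, a human osteosarcoma line, with 3 WT clones and 3 clones knocked out for ZBTB48 (ZBTB48 KO), a zinc finger protein that binds telomeric repeats and gene promoters. Every clone had been kept for 24 h with interferon gamma (IFNγ) at 250 U/ml, per the labels, so no untreated state was available for comparison, and each library was 1 clone. A figure legend of the study names a longer treatment for tracks that include H3K4me3, so the time is uncertain. Values per genotype therefore include the difference between clones of 1 line, and 2 WT input libraries complete the 8 samples but were not analysed here.

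IRFs share an N-terminal DNA-binding domain that reads GAAA-containing elements in interferon-responsive promoters. IFNγ signals through JAK kinases to the GAS elements of promoters such as that of IRF1, and IRF1 in turn activates many later interferon-response genes. IRF2 competes with IRF1 for the same sites. IRF9 joins STAT2 in the ISGF3 complex, IRF3 and IRF7 are activated by kinases such as TBK1 downstream of sensors of viral nucleic acid, and IRF5 acts below Toll-like receptors. IRF4 and IRF8 serve in lymphoid and myeloid cells, where they pair with SPI1 (PU.1) or BATF. IRF1, IRF2, IRF3 and IRF9 were grouped as ubiquitous members and IRF4 and IRF8 as lymphoid members, while IRF5 and IRF7, present in many cells but highest in immune cells, were set apart.

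The promoter sequences below are shown because IFNγ reaches a promoter through the GAS element and ZBTB48 is known for binding TTAGGG repeats. RefSeq promoter sequences (GRCh38.p14, 250 bases before to 50 after the 5′ end) matched 4 of the 8 members, IRF1, IRF9, IRF5 and IRF4. Capitals mark matches to the GAS element TTCNNNGAA, which reads the same on both strands, or to TTAGGG. For IRF1, IRF5 and IRF4 the longest stretch free of annotated exons is given. For IRF9 only 30 bases around each match are given, since its whole upstream stretch lies in an exon of the readthrough gene ENSG00000259529.
IRF1, chr5:132490778-132491023, minus strand: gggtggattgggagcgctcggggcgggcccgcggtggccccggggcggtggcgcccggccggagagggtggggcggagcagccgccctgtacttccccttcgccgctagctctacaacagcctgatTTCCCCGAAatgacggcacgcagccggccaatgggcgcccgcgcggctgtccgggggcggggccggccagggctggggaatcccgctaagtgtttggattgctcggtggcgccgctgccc
IRF9 around the GAS match, chr14:24161192-24161221, plus strand: accacgtgatTTCTGGGAAaaggccctccc
IRF9 around the telomere repeat, chr14:24161227-24161256, plus strand: gagaactgaaacTTAGGGtggggactgtag
IRF5, chr7:128937835-128937926, plus strand: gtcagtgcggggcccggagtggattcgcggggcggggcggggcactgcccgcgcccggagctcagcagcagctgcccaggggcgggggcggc
IRF4, chr6:391502-391738, plus strand: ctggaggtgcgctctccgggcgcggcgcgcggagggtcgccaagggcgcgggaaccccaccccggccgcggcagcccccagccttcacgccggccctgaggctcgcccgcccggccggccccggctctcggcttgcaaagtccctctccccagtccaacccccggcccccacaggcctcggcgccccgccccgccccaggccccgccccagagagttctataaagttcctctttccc

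A GAS match lay at −124 to −116 from the 5′ end of IRF1 and at −63 to −55 from that of IRF9, and the IRF9 promoter also held TTAGGG at −26 to −21. No GAS or TTAGGG match, on either strand, was found in the 300 bases of IRF5 or IRF4. None of the 4 promoters, IRF1 and IRF9 included, held a GAAANNGAA match on either strand. Over 35116 RefSeq promoters of the same length, 7.66% held a GAS match, 9.05% TTAGGG and 8.11% GAAANNGAA, so each of these short motifs is common. The whole 300 bases, of which only parts are printed, held 36, 32, 25 and 7 CpG dinucleotides at IRF1, IRF4, IRF5 and IRF9, against a median of 14. Their GC content was 73.7%, 74%, 70.3% and 60%, against a median of 58.7%.

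The lists differed in kind, and the division ran through the WT lists. In WT replicates 1 and 2 peaks had a median width of 2297 and 2353 bp and a median fold enrichment over background of 13.4 and 14.0. In the other 4 lists, WT replicate 3 and the 3 KO lists, median fold enrichments ran from 4.19 to 4.65, lowest in WT replicate 3, so fold enrichment did not follow genotype. Width did keep the order of the genotypes. The median was 1487 bp in WT replicate 3 and 1388, 1376 and 1275 bp in KO replicates 1, 2 and 3, and the median covered length of marked promoters, as defined below, was 3274, 3215 and 1955 bp in WT and 1912, 1755 and 1655 bp in KO. The lengths and widths of the members were therefore also set against the KO lists with WT replicate 3, the WT list most like them, taken alone. The lists hold no reads, so the depth of a library is unknown here. At ZBTB48 itself the promoter was covered over 3161, 3330 and 1821 bp in the WT and 1855, 1555 and 1241 bp in the KO lists, which overlap, and a promoter peak does not check the loss of the protein.

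IRF1, IRF2, IRF3, IRF9, IRF5 and IRF8 had a peak within 3 kb in all 6 libraries, 6 of 8 members against 66.9% of all promoters. IRF7 and IRF4 had none in any library, as had 28% of all promoters. No member was marked in 1 genotype and unmarked in the other. Membership of the ubiquitous group went with a peak at 4 of 4 genes, while the lymphoid pair split, with IRF8 marked and IRF4 unmarked, and so did the genes set apart, with IRF5 marked and IRF7 unmarked. The markers of the cell of origin were checked in the same way. Of 7 mesenchymal genes 6 had a peak in all 6 libraries (VIM, COL1A1, SPARC, RUNX2, FN1 and THY1, but not COL1A2), of 9 lymphoid genes only PAX5 had, and the other 8, among them PTPRC, MS4A1 and CD3E, had none in any library. None of 5 myeloid genes, CD14, CSF1R, ITGAM, LYZ and SPI1, had a peak in any library. The IRF8 peak thus stood in lists with peaks at few of these lineage genes, PAX5 being the exception. The 5′ end of PAX5 itself was not under a peak in all 6 libraries, while that of 4 of the 7 mesenchymal genes was.

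For each member the covered length was taken, that is the bp that peaks occupied in the window of 3 kb on either side of the 5′ end. It was compared by an exact permutation test of the genotype means, two-sided, over all 20 ways of dividing the 6 libraries into 3 and 3. The smallest p this design allows is 0.1, and after Benjamini-Hochberg adjustment over the 14422 promoters covered in any library the lowest adjusted p was 0.196, so no promoter, a member or not, passed the test. In a pool of cells, a shorter peak cannot be told apart as loss of the mark in some cells or thinning of it in every cell.

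**Figure D1:**
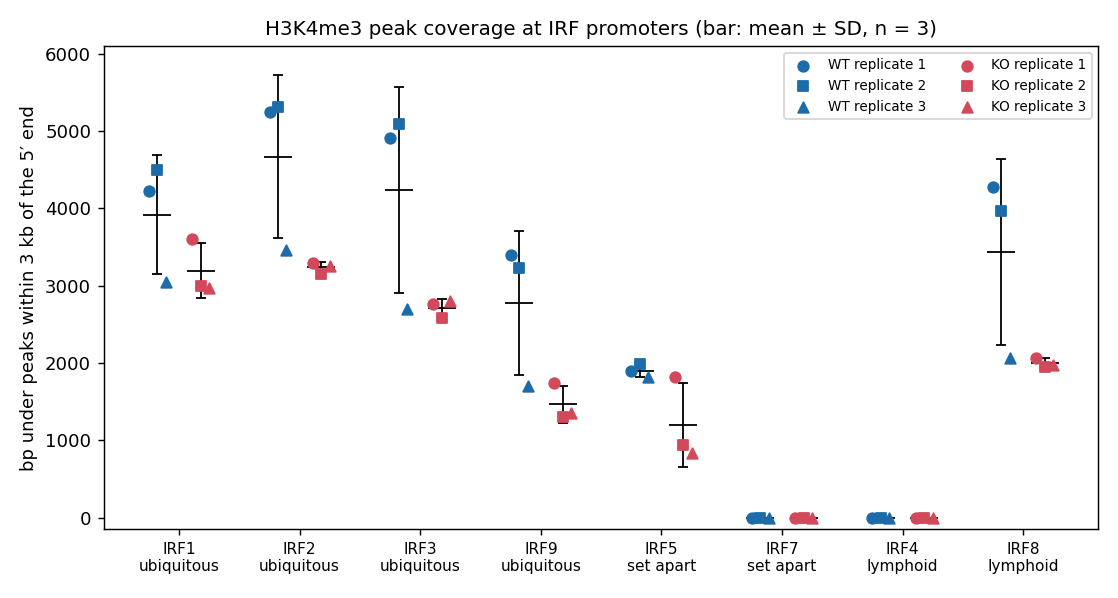
Covered length, in bp under H3K4me3 peaks within 3 kb of the 5′ end, for each of the 8 members (x axis, with its group). Each point is 1 library, blue for WT and red for ZBTB48 KO, with the shape giving the replicate, and the bars are mean ± SD of 3 libraries. WT replicate 3 (blue triangles) lies next to the KO points at IRF2, IRF3, IRF9 and IRF8, and IRF7 and IRF4 are at 0 in every library.

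IRF1, an activator induced by IFNγ, carried the widest promoter peak of the family in all 6 libraries, and the peak lay mainly downstream of the 5′ end at position 132490773 of chromosome 5. Its covered length was 4223, 4491 and 3046 bp in WT replicates 1, 2 and 3 and 3601, 3002 and 2975 bp in KO replicates 1, 2 and 3. KO replicate 1 exceeded WT replicate 3, so the genotypes overlapped. The means were 3920 ± 769 bp in WT and 3193 ± 354 bp in KO (SD, n = 3 each), a difference of 727 bp (exact permutation p = 0.2, adjusted p = 0.245). Set against the KO mean, WT replicate 3 differed by −147 bp, the opposite sign.

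The IRF1 peak filled the downstream 3 kb of the window in 5 of 6 libraries and ran past it in all 6. Taken whole, the peak was 8574, 8849 and 6057 bp wide in WT replicates 1, 2 and 3 and 5581, 3332 and 3266 bp in the KO replicates. All 3 WT peaks were wider than all 3 KO peaks, WT replicate 3 by 476 bp over the widest KO peak. The mean width was 7827 ± 1539 bp in WT and 4060 ± 1318 bp in KO (SD, n = 3 each), a difference of 3767 bp (exact permutation p = 0.1, the smallest possible). Such a separation in whole width was found at 51.1% of covered promoters. A lead of WT replicate 3 over all KO lists at least as large as that of IRF1 was found at 6.57% of promoters. These were the 14281 promoters covered in any of the 4 lists of like kind. That threshold was taken from IRF1 in these data and is in bp, not scaled to the width of a peak. The share is therefore a description only and does not set IRF1 apart.

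The difference lay at the downstream end. The IRF1 peak ended 7351, 7358 and 6011 bp inside the gene in WT replicates 1, 2 and 3, and 4980, 3330 and 3291 bp inside it in KO replicates 1, 2 and 3. Its upstream end showed no such order. It stood at −1222, −1490 and −45 bp in the WT and at −600, −1 and +26 bp in the KO replicates, so that in KO replicate 3 the peak began inside the first exon and the 5′ end itself was uncovered. The GAS match shown above, at −124 to −116, was therefore under the peak in 3 of 6 libraries, WT replicates 1 and 2 and KO replicate 1.

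**Figure D2:**
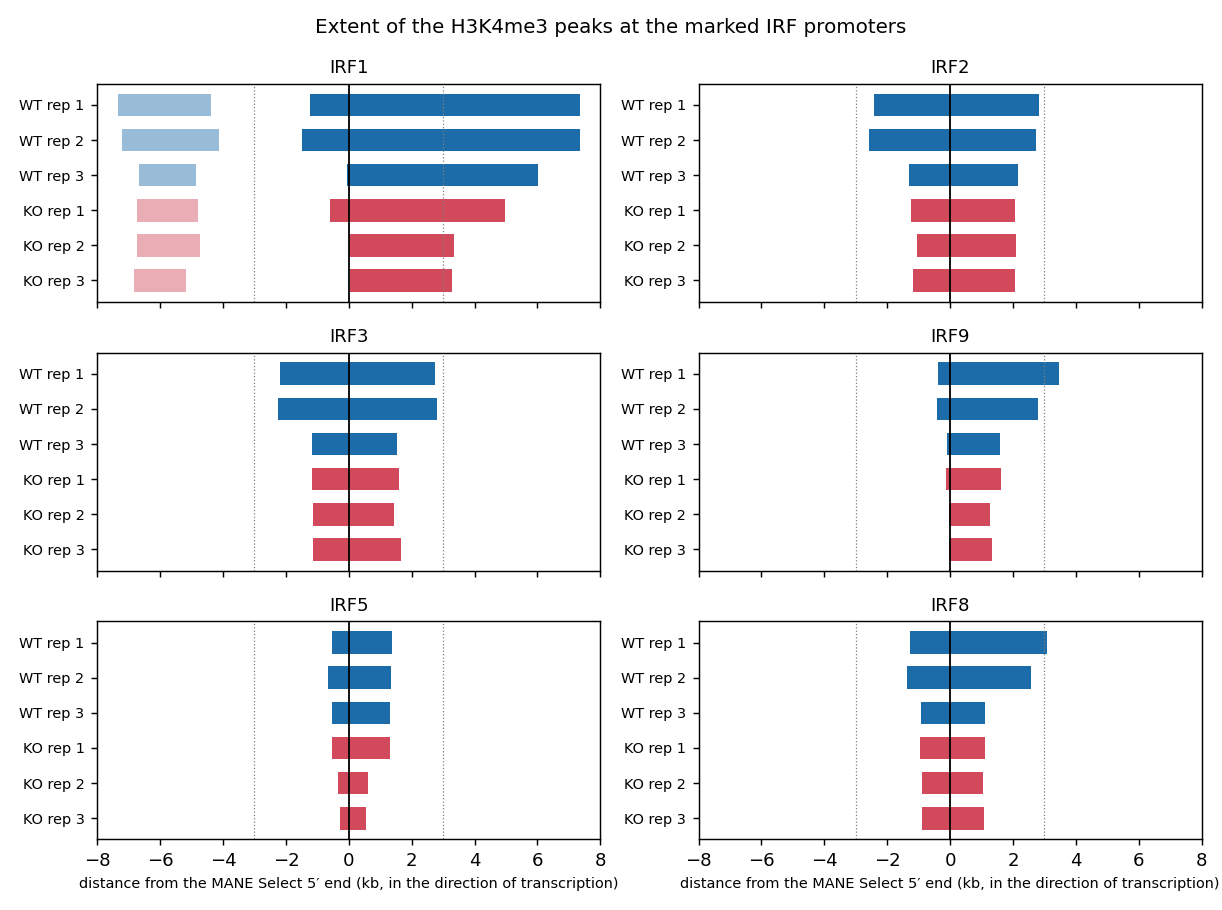
Extent of the H3K4me3 peaks in each library (rows, blue for WT, red for ZBTB48 KO) at the 6 marked members, on an x axis of distance from the 5′ end in kb in the direction of transcription, with dotted lines at 3 kb on either side. At IRF1 the downstream end reaches beyond 6 kb in the WT rows and stays under 5 kb in the KO rows, and the pale bars are a separate peak upstream; at IRF3 and IRF8 the row of WT replicate 3 has nearly the same extent as the KO rows.

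IRF1 had a separate, upstream peak in all 6 libraries as well. It ran from −7355 to −4387 bp in WT replicate 1, from −7202 to −4141 bp in WT replicate 2 and from −6675 to −4855 bp in WT replicate 3. In the KO replicates it was 1937, 2004 and 1663 bp wide, against 2969, 3062 and 1821 bp in the WT replicates, so the genotypes overlapped. The annotation places the 5′ end of a longer IRF1 protein-coding transcript (ENST00000681584) at −5694 bp, under this peak in 6 of 6 libraries, whereas another at −17946 bp was under none. With windows around every annotated 5′ end of IRF1, WT exceeded KO in all libraries by a mean of 4516 bp (exact permutation p = 0.1), unlike with the single window. The totals were 11543, 11911 and 7878 bp in WT replicates 1, 2 and 3 and 7518, 5336 and 4929 bp in the KO replicates, so WT replicate 3 led the highest KO library by 360.0 bp, a comparison added after the data were seen.

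IRF2, the competitor of IRF1 at shared sites, was covered over 5246, 5306 and 3458 bp in WT replicates 1, 2 and 3 and over 3294, 3158 and 3260 bp in the KO replicates. The 3 WT libraries lay above the 3 KO libraries, WT replicate 3 by 164 bp. The difference of the means was 1433 bp (4670 ± 1050 against 3237 ± 70.8 bp, SD, n = 3 each, exact permutation p = 0.1, adjusted p = 0.196). The whole of the inner 1 kb on either side was covered in every library, so the difference was in the flanks. Its 5′ end lies 252 bp from that of the divergent lncRNA IRF2-DT and 1941 bp from that of the lncRNA ENSG00000270426, and a peak over both cannot be assigned to 1 gene.

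IRF3, the factor activated by TBK1, was covered over 4915, 5087 and 2704 bp in WT replicates 1, 2 and 3 and over 2767, 2588 and 2802 bp in the KO replicates. WT replicate 3 fell inside the KO range. The difference of the means, 1516 bp (exact permutation p = 0.3, adjusted p = 0.335), had the opposite sign, −15 bp, when WT replicate 3 was set against the KO mean. As at IRF2, the inner 1 kb on either side was fully covered throughout, and the 5′ end of BCL2L12 lies 76 bp away on the other strand.

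IRF9, the DNA-binding subunit of ISGF3, had a peak that began close to its 5′ end and ran into the gene. It covered 3400, 3225 and 1706 bp in WT replicates 1, 2 and 3 and 1745, 1310 and 1356 bp in the KO replicates. WT replicate 3 again lay within the KO range, and the difference of the means was 1307 bp (exact permutation p = 0.2, adjusted p = 0.245). The upstream end stood at −399, −411 and −110 bp in the WT and at −122, −45 and −26 bp in the KO replicates. The GAS match of IRF9 lay under the peak in 4 of 6 libraries, all but KO replicates 2 and 3, and the TTAGGG match in 6 of 6, at the very edge of the peak in KO replicate 3.

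IRF5, which acts below Toll-like receptors, had the shortest covered length of the marked members on average in both genotypes. It was covered over 1897, 1994 and 1822 bp in WT replicates 1, 2 and 3 and over 1821, 941 and 843 bp in the KO replicates. Although all 3 WT values exceeded all 3 KO values (difference 703 bp, exact permutation p = 0.1, adjusted p = 0.196), WT replicate 3 and KO replicate 1 were 1 bp apart. The spread at IRF5 was within the KO clones, where replicate 1 had a peak of WT length and replicates 2 and 3 had shorter ones. In those shorter peaks the average fold enrichment was higher, 6.76 and 6.90, than the 4.10 of KO replicate 1.

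IRF7, the factor that amplifies type I interferon, had no peak within 3 kb in any library. The nearest peak lay 36838, 36943 and 12157 bp away in WT replicates 1, 2 and 3 and 12327, 38191 and 38283 bp away in KO replicates 1, 2 and 3. None of its 15 distinct annotated 5′ ends was under a peak. Neither genotype thus had a called peak at IRF7 in IFNγ-treated cells. Without reads it cannot be said how much mark lay under the calling threshold there.

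Of the lymphoid members, IRF8 was covered over 4275, 3968 and 2060 bp in WT replicates 1, 2 and 3 and over 2069, 1948 and 1980 bp in the KO replicates. WT replicate 3 was 9 bp under KO replicate 1, the 4 lists of like kind all lay between 1948 and 2069 bp, and the difference of the means was 1435 bp (exact permutation p = 0.2, adjusted p = 0.245). IRF4 had no peak within 3 kb and none of its 5 distinct 5′ ends was covered. Its 300 promoter bases nevertheless held more CpG dinucleotides than those of the marked IRF5. The only peak near it was a weak one of 320 bp within the gene in KO replicate 1, from +16720 to +17039 bp, with a −log10 q of 1.58. In the other 5 libraries the nearest peak was 97303 to 98041 bp away.

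Set side by side, the ubiquitous members averaged 3901 ± 1016 bp in WT and 2655 ± 176 bp in KO, and the lymphoid members, IRF4 counted at 0, averaged 1717 ± 600 and 999.5 ± 31.3 bp (SD over 3 libraries). The difference between the groups was 2183 ± 436 bp in WT and 1655 ± 144 bp in KO, and these ranges overlapped. Much of this difference rests on IRF4. The ubiquitous mean exceeded IRF8 alone in 6 of 6 libraries, by 466 ± 261 bp in WT and 656 ± 113 bp in KO. Without IRF4 the order of the genotype means thus turned, but the libraries overlapped. They stood at 171, 559 and 668.5 bp in WT replicates 1, 2 and 3 and at 783, 566.5 and 618 bp in the KO replicates. IRF8 alone was longer than 2 of the 4 ubiquitous members in WT replicate 1 and than 1 of them, IRF9, in each of the other 5 libraries. In order of covered length, IRF2 was first in 5 of 6 libraries and IRF1 in KO replicate 1. IRF1, IRF2 and IRF3 exchanged places among libraries, and so did IRF9 and IRF5, while IRF8 was above both of these in 6 of 6.

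Over the family, 2 of the 6 marked members, IRF2 and IRF5, had all 3 WT libraries above all 3 KO libraries in covered length, against 50.8% of the 14422 covered promoters. None was the other way, against 0.111%. The count rested on a pair of libraries. Without WT replicate 3 it was 6 of 6, against 90.3% of promoters, and without KO replicate 1 it was 5 of 6, against 79.6%. With WT replicate 3 as the only WT library the same genes, IRF2 and IRF5, were above all KO lists, against 54.4% of 14281 promoters, and the other 4 were within the KO range. The median difference of the 6 marked members was 1370 bp, against 965 bp over all covered promoters. IRF1 and IRF5 were below that median and IRF2, IRF3, IRF9 and IRF8 above it.

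Ranking each promoter within its own list puts the lists on a common scale, although it need not remove every difference between the kinds of list. In these percentiles of covered length, IRF2 stood at 97.0 ± 0.493 in WT and 97.4 ± 1.10 in KO, and IRF3 at 93.4 ± 3.52 and 93.2 ± 2.45 (SD, n = 3 each). IRF9 stood at 62.1 ± 8.21 and 50.9 ± 5.58, IRF8 at 79.7 ± 8.59 and 75.4 ± 3.79, and IRF5 at 45.7 ± 11.3 and 43.8 ± 14.5. The genotypes overlapped at these 5 genes.

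IRF1 was the exception, and in the direction opposite to its length. Its percentile was 85.4, 91.0 and 94.3 in WT replicates 1, 2 and 3 and 97.6, 96.4 and 97.3 in KO replicates 1, 2 and 3, so every KO library ranked it higher than every WT library. The means were 90.3 ± 4.49 and 97.1 ± 0.612, a difference of −6.84 (SD, n = 3 each, exact permutation p = 0.1). This order was found at 11.9% of covered promoters and the reverse order at 6.29%. The IRF1 peak passed the 3 kb window in every library, and its length beyond the window was not counted. Whether this limit has a part in the order was not tested. Among peaks ranked by whole width, IRF1 was at 99.0, 99.5 and 99.9 in WT and 99.6, 98.3 and 98.5 in KO, which overlap.

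**Figure D3:**
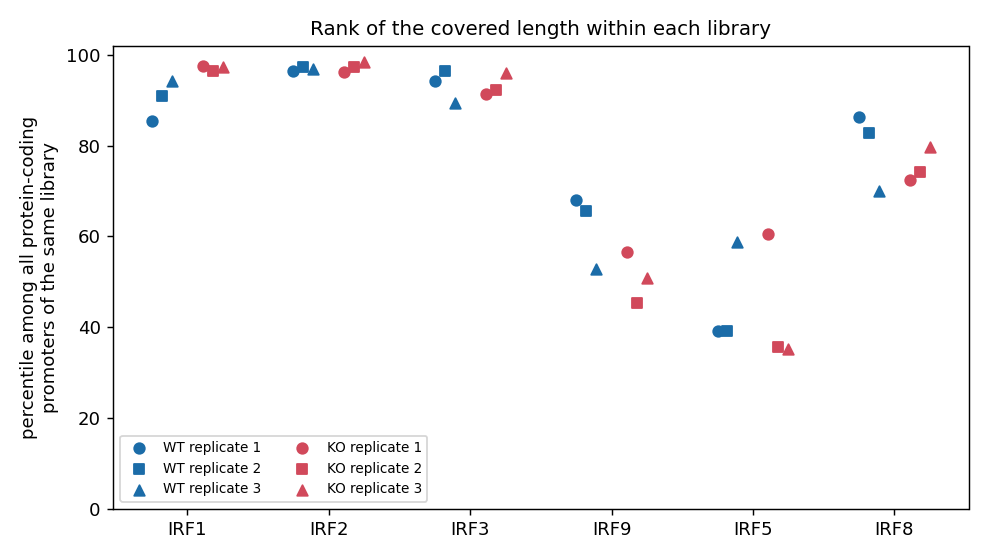
Percentile of the covered length of the 6 marked members (x axis) among all protein-coding promoters of the same library (y axis), 1 point per library, blue for WT and red for ZBTB48 KO. IRF1 is the only one whose KO points, 96.4 to 97.6, all lie above its WT points, 85.4 to 94.3.

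**Figure D4:**
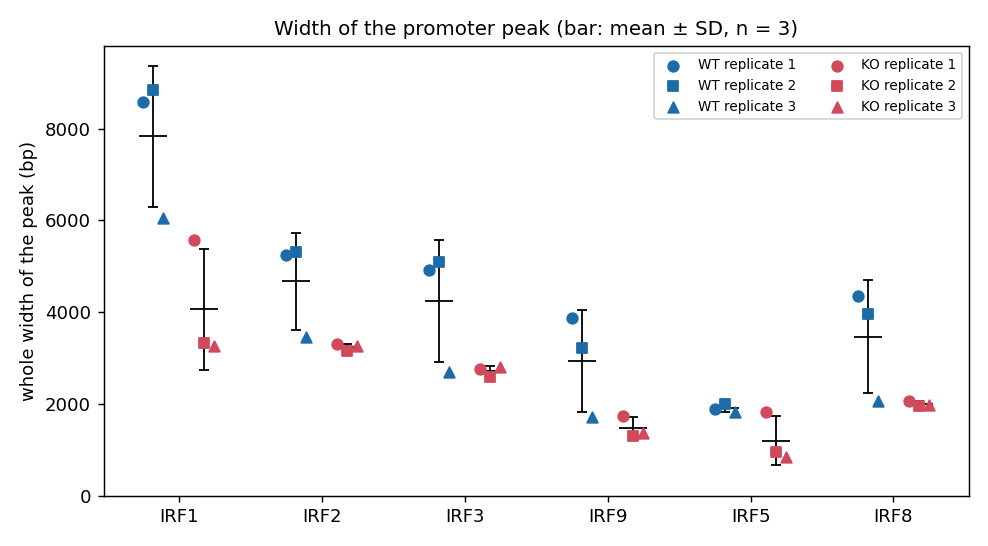
Whole width in bp of the promoter peak of the 6 marked members (x axis), not limited to 3 kb, 1 point per library with bars for mean ± SD of 3 libraries. At IRF1 the WT points run from 6057 to 8849 bp and the KO points from 3266 to 5581 bp, and at IRF3, IRF9 and IRF8 the triangle of WT replicate 3 lies among the KO points.

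Fold enrichment, given by the peak caller as an average over the peak, ordered the members differently in the 2 kinds of list. In WT replicates 1 and 2 the peaks of IRF1, IRF2 and IRF3 stood at the 80.1 to 92.7 percentile of their lists. In the other 4 lists the same peaks stood at the 1.46 to 19.5 percentile, although their widths were at the 92.1 percentile or above. The peak of IRF8 was lower there too, by less, at 76.3 and 63.3 in WT replicates 1 and 2, 50.4 in WT replicate 3 and 45.3, 42.2 and 41.5 in the KO replicates. The peak of IRF9 went the other way, from 52.7 and 53.5 to between 63.4 and 76.7, and so did that of IRF5, from 39.5 and 39.8 to 48.9 in WT replicate 3 and up to 91.5 in the KO replicates. WT replicate 3 was with the KO lists at IRF1, IRF2 and IRF3, and the origin of the change was not tested.

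The 5′ end itself was under a peak in all 6 libraries at 5 of 8 members, all the marked ones but IRF1, against 61.3% of all promoters. Counting every annotated 5′ end, a peak in all 6 libraries covered 10 of 28 at IRF1, 15 of 18 at IRF2, 22 of 26 at IRF3 and 46 of 56 at IRF9. At IRF5 it covered 11 of 20 and at IRF8 6 of 17. At IRF1 another 15 were covered in some libraries only. Many annotated starts lie close together, and the covered ones of IRF2 all lay between −8 and +542 bp. The share over all promoters was not computed, so these counts cannot be read as particular to the ubiquitous genes.

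Of 13 partners and regulators of the family, 11 had a peak in all 6 libraries, against 66.9% of all promoters. SPI1 and BATF, the partners of IRF4 and IRF8, had none in any. The list held 4 genes with all WT libraries above all KO libraries in covered length, the ISGF3 subunit STAT2, the lymphoid factor IKZF1, the kinase TBK1 and the ubiquitin ligase TRAF6, and 0 with the reverse order, 4 of 11 against the 50.8% of covered promoters given above. With WT replicate 3 alone the count was also 4, against 54.4%. Ranked within each list, IRF2BPL stood higher in every KO library than in every WT library, as IRF1 did, at a percentile of 86.5 ± 6.30 in WT and 97.4 ± 0.857 in KO (SD, n = 3 each). IKZF1 showed the reverse order, at 65.3 ± 10.3 and 58.3 ± 1.25. IKZF1 was, with PAX5 and IRF8, among the lymphoid genes that had a peak within 3 kb in all 6 libraries.

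By the Euclidean distance between the 6 covered lengths, the promoters most like that of IRF1 were those of CDC42BPA, at 166 bp, TGOLN2, at 290.4 bp, and PPM1D, at 339 bp. Those most like that of IRF8 were TPRG1L, at 111 bp, MTSS2, at 115 bp, and GPR173, at 170 bp. This says only that the lengths are alike.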

How the data were processed

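H3K4me3 ChIP-seq of 3 WT and 3 ZBTB48 KO clones of U2OS was used, grouped by genotype and replicate number in the labels. Per the study's methods and the submitters' processing notes, reads were trimmed with Trimmomatic, aligned to GRCh38 with Bowtie2 2.3.5.1 and cleared of duplicates and multimapping reads, and broad peaks were called for each library with MACS2 2.1.1.2. Whether each call used an input is not given in the sources used here. The deposited lists hold a score, not used here, a fold enrichment ratio of signal over background, and −log10 p and −log10 q values, which the authors' caller averages over a peak. The deposited fold and −log10 values were used only within a list.

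Promoters were the MANE Select or canonical 5′ ends of 20033 protein-coding genes in GENCODE 44, and a promoter was marked when at least 1 bp of a peak lay within 3 kb. Covered length was compared by two-sided exact permutation with Benjamini-Hochberg adjustment. Steps ran in Python 3.11.15 with numpy 2.4.6, and figures in matplotlib 3.10.9. On simulated lists of 1000 promoters, 200 were shortened by about 700 bp in KO. The count of promoters with all WT above all KO recovered 200 of these 200 and called 26 of 800 unchanged ones. The simulated lists held only a small spread between libraries and no difference in width between whole lists. The check therefore covers the counting alone, and its share of false calls does not apply to the deposited lists. Named genes were the members, ZBTB48, neighbours with a 5′ end within 3 kb, the partners list, the marker lists and the 3 promoters most like IRF1 and IRF8. Members and lists were chosen with earlier results of these data known. The clones are the replicates, so p-values are set against the spread between libraries. In that spread, clone and kind of list cannot be told apart. Some genes of these lists enter the counts only and are not reported here by name.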

Additional observations from a re-analysis of the deposited data

How the results depend on the processing

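Among the 6 marked members, direction turned under 2 alternatives. WT replicate 3 against the KO mean turned IRF1 to −147 bp and IRF3 to −15.0 bp, and ranking within the list turned IRF1 to −6.84 and IRF2 to −0.39 percentile points. With a window of 1 kb the difference was 0 at IRF2 and IRF3, where every library covered the whole window. The count of 2 members with WT above KO fell to 1 with a fold enrichment of at least 4 and to 1 with a window of 1 kb, and to 0 with percentiles. It rose to 3 with all annotated 5′ ends, where IRF1 joined, to 6 without WT replicate 3 and to 5 without KO replicate 1, and ranged from 2 to 6 over the libraries left out in turn. Members marked in all 6 libraries fell from 6 to 3 with a fold enrichment of at least 4, which removed IRF1, IRF2 and IRF3. That cut-off is close to the median fold enrichment of WT replicate 3 and the KO lists, 4.19 to 4.65. The share over all promoters was not computed for the fold enrichment, 1 kb and all-5′-end settings. The counts under these settings can therefore not be read as particular to the family.

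Ubiquitous minus lymphoid members, 1919 bp over all libraries, was 392 bp with a fold enrichment of at least 4, 683 bp with a window of 1 kb, 2377 bp with 5 kb, 3089 bp with all annotated 5′ ends and 1199 bp with IRF7 counted as ubiquitous and IRF5 as lymphoid. Its WT minus KO difference was 528 bp. Under these settings, in the same order, it was 2048, 153, 933, 1500 and 284 bp, and 43.2 bp with WT replicate 3 alone. The ubiquitous mean minus IRF8 alone had the opposite order of genotype means, 466 bp in WT and 656 bp in KO, with overlapping libraries. With the replicate block, an exact permutation of the signs of the 3 paired differences, the smallest possible p was 0.25, and the 1433 bp at IRF2 gave an exact permutation p of 0.25. Same-numbered libraries deviated with correlations of −0.00952, 0.0171 and 0.0932, so the numbers were not taken as pairs. Depth, unknown here, limits what the lists call.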
